A study of Mus musculus with 12 samples.

Results

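Macrophages of the artery wall were followed through 10 transcripts in RNA-Seq libraries of mouse abdominal aorta. Of these, 6 were taken as markers of tissue-resident macrophages (Lyve1, Folr2, Cd163, Mrc1, F13a1 and Timd4). Another 3 were taken as markers of macrophages derived from recruited monocytes (Ly6c2, Lyz2 and Chil3). The last, Adgre1, encodes F4/80 and is carried by both. The 10 transcripts were picked by gene symbol from a table of 55092 features, and all 10 were among the 14676 genes that were tested. The 12 libraries came from 12 male mice, with 3 mice in each of 4 groups, and the values are FPKM, a measure of the fragments assigned to a gene that allows for gene length and sequencing depth. The design asked how losing CCN2 (connective tissue growth factor, a matrix-associated protein) from smooth muscle cells (SMCs) changes the aorta with and without angiotensin II (Ang II), a peptide that raises blood pressure and is infused to produce abdominal aortic aneurysm in mice.

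The CFS group held CCN2fl/fl mice given saline, and the CFA group CCN2fl/fl mice given Ang II. The CSS group held CCN2SMCΔ mice given saline, and the CSA group CCN2SMCΔ mice given Ang II. CCN2SMCΔ mice carried the floxed Ccn2 gene with the tamoxifen-inducible Myh11-Cre-ERT2, which is expressed in smooth muscle, and CCN2fl/fl controls carried the floxed gene without the Cre. Both genotypes received 5 tamoxifen doses from 8 weeks of age and rested for 2 weeks, after which a mini-osmotic pump delivered saline or Ang II at 500 ng/kg/min for 7 days. Because whole tissue was sequenced, fewer cells of a type and less RNA per cell cannot be told apart in any value given here.

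Many macrophages of the healthy artery wall are seeded before or around birth and renew themselves locally, mostly in the adventitia, and they carry scavenger and endocytic receptors such as LYVE1, FOLR2, CD163 and CD206. Circulating monocytes with high surface Ly6C enter injured tissue through the receptor CCR2 and its ligands and can mature there into macrophages. Marker transcripts are not exclusive to 1 origin, since incoming cells can acquire some resident markers, Lyve1 is also made by lymphatic endothelium, and Lyz2 and Chil3 are also made by neutrophils.

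The libraries held 14558580 to 23107811 fragments (median 19577899.5), as recovered from the FPKM and the exon lengths. Targeted gene Ccn2 was at 435.6 to 639.9 FPKM in CSS and 480.1 to 1108 FPKM in CFS, ranges that overlapped, and at 254.9 to 398.6 FPKM in CSA against 563.5 to 1105 FPKM in CFA, which did not overlap. The deletion was limited to 1 cell type, and which exons the fragments fell on was not analysed here. Of the 5 smooth muscle markers, all 5 passed the test as lower in CSA than in CFA, with Myh11 (smooth muscle myosin) at 35.4 to 46.5 FPKM in CSA and 695.2 to 732.7 FPKM in CFA, and Acta2 (smooth muscle actin) at 683.4 to 774.2 FPKM in CSA and 3881 to 6604 FPKM in CFA, so markers of the labelled tissue were present in CSA at lower levels. A pair of mice stood apart from their groups. CFA 72 was the highest of the 3 CFA mice in 9 of the 10 markers and in 15 of 15 further genes of all macrophages, and CSA 03, the library with the fewest fragments, lay 1.21 and 1.2 log2 units (root mean square over the tested genes) from the other CSA mice, which lay 0.505 from each other.

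Under Ang II the monocyte-derived markers were far higher in CSA aortas than in CFA aortas, and the resident markers were not. Ly6c2, Lyz2, Chil3 and Adgre1, that is 4 of the 10 markers, were called as higher, and 0 were called as lower (limma on log2(FPKM + 0.1), with a call at an adjusted p below 0.05 together with a log2 difference beyond 1.5 in either direction), and 4 were also called without CFA 72 and CSA 03. Ly6c2 and Chil3 reached 1 FPKM in 3 libraries, the condition for being tested, only by counting the CSA mice in which they were high, so their calls and the counts and medians that include them are no independent support. For comparison, 17.2% of all tested genes were called in this comparison, 8.95% as higher and 8.27% as lower. None of the 6 resident markers was called, although Mrc1 (higher) and Lyve1 (lower) had an adjusted p under 0.05 with a smaller change, as did 40.7% of all tested genes with or without the larger change, and 3 of the 6 had an unadjusted p under 0.05, against 49.0% of all tested genes. The CSA and CFA values did not overlap for 4 of the 10 markers, all of them higher in CSA, while 23.4% of the tested genes showed such a gap upward and 25.1% downward. The median log2 difference was 3.46 over the 3 monocyte-derived markers and -0.44 over the 6 resident markers, beside -0.04 over all tested genes.

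**Figure D1:**
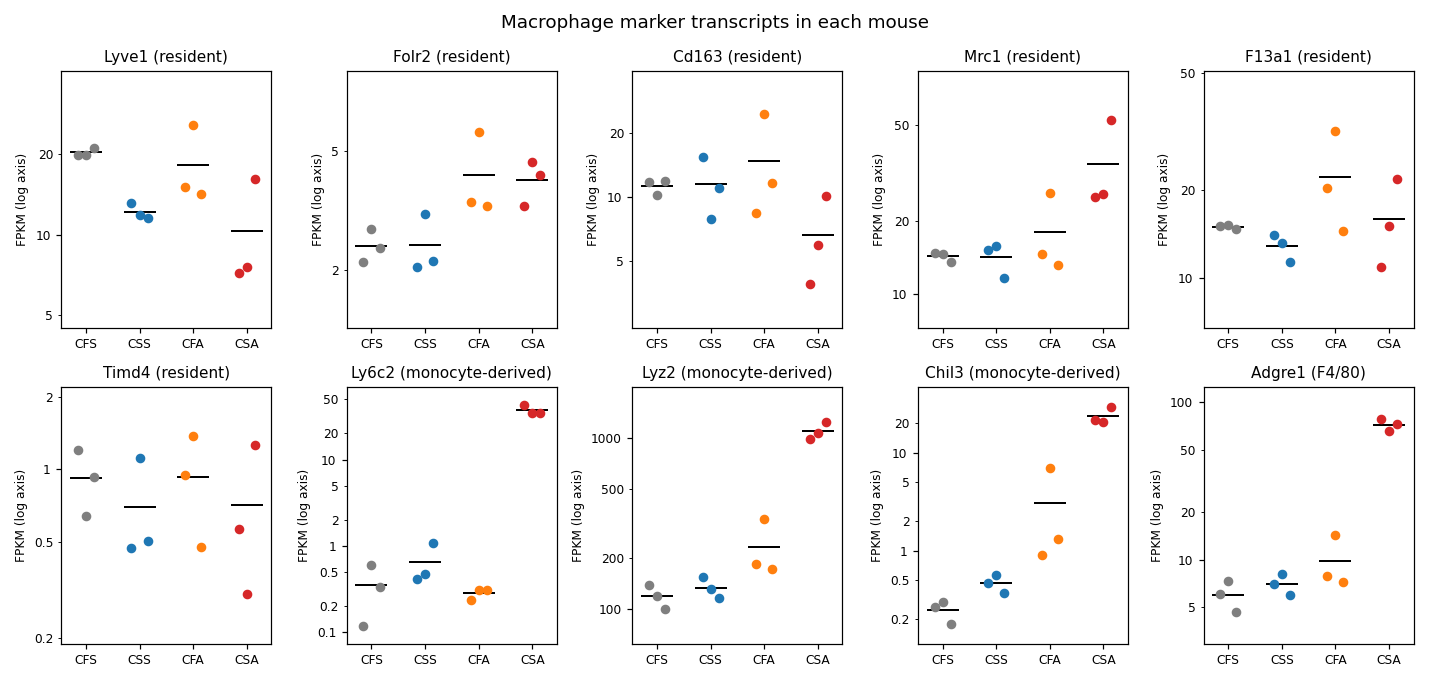
FPKM of the 10 markers (y axes, log scale) in each of the 12 mice (points), by group (x axis), with the group mean as a black line. The 3 CSA mice stand above all other mice in Ly6c2, Lyz2, Chil3 and Adgre1, while the resident markers overlap between CSA and CFA, and the highest CFA point in most panels is CFA 72.

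Ly6c2, on chr15:75108158-75111970 (GRCm38, minus strand), encodes one of the glycolipid-anchored surface proteins recognised as Ly6C on inflammatory monocytes. Its FPKM was 43.1, 34.3 and 34.6 in CSA 01, 02 and 03, against 0.235, 0.31 and 0.31 in CFA 71, 72 and 74. It was 0.412, 0.473 and 1.07 in CSS 54, 55 and 56, and 0.118, 0.605 and 0.339 in CFS 68, 69 and 70. Every CSA mouse was far above every other mouse, CFS overlapped with both CSS and CFA, and all 3 CFA mice were below the 3 CSS mice. The log2 difference between CSA and CFA was 6.60 ± 0.42 (SE, n = 3 mice per group; adjusted p = 1.36e-06, limma), which ranked 8 of the 14676 tested genes, and the ratio of the group mean FPKM was 131. Behind these values stood 1451 to 2399 fragments in each CSA library and 14 to 18 in each CFA library. Ly6c2 reached 1 FPKM only in the 3 CSA mice and CSS 56, so it entered the test through the group in which it was high.

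Ly6c2 has a close neighbour, Ly6c1, on chr15:75044018-75048830, which is known from endothelium, and the coding sequences of both (396 bases) were identical at 97.7% of positions. In a scan of the longest coding transcript of Ly6c2, 39 of 673 windows of 150 bases, the read length, were also found in Ly6c1, which is 5.79%. Some fragments can therefore not be divided with certainty. The first 90 coding bases are shown since they hold 6 of the 9 substitutions, in capitals, by which fragments of the 2 genes are told apart.
Ly6c2: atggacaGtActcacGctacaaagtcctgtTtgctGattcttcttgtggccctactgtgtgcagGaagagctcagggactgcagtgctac
Ly6c1: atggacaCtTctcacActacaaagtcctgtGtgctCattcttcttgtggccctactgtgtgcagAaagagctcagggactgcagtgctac
Ly6c1 itself was at 50.2, 51.3 and 50.3 FPKM in CSA and at 45.4, 41.3 and 58.4 FPKM in CFA. These ranges overlapped, and the log2 difference was 0.08 (adjusted p = 0.851, 95% interval -0.58 to 0.74). The large difference was thus seen in the counts given to Ly6c2 and not in those given to its neighbour.

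Lyz2, on chr10:117277331-117282321 (GRCm38, minus strand), encodes lysozyme M, a bacterial cell wall enzyme made in quantity by monocytes, macrophages and neutrophils. It was the most abundant marker of the set on the per-length scale in all 12 mice. Its FPKM was 987.9, 1063 and 1234 in CSA, 183.2, 335.2 and 172.0 in CFA, 154.8, 131.5 and 115.9 in CSS, and 139.2, 120.4 and 100.8 in CFS. The lowest CSA mouse was above CFA 72, the highest of the rest. Lyz2 was also abundant in the saline mice, where Ly6c2 was at 0.118 to 1.07 FPKM and Chil3 at 0.178 to 0.562 FPKM. Lyz2 was higher in CSA than in CFA by 2.31 ± 0.24 on the log2 scale (SE, n = 3; adjusted p = 3.07e-05, limma), a ratio of means of 4.76, and without CFA 72 the difference was 2.62. Tested against the limit of 1.5 itself (limma's treat), its adjusted p was 0.0525.

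Lyz2 lies beside Lyz1, the lysozyme of intestinal Paneth cells, and the coding sequences (447 bases each) were identical at 95.1% of positions. No window of 150 bases was shared. Coding bases 43 to 132, the stretch with most differences (13, in capitals), are shown because they separate the copies.
Lyz2: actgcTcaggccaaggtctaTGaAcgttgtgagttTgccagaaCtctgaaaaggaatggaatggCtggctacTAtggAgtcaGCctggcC
Lyz1: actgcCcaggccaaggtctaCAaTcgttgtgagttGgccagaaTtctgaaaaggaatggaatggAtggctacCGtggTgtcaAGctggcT
Lyz1 stayed between 0.747 and 7.28 FPKM in the 12 mice and between 0.747 and 2.58 FPKM in CSA, where Lyz2 was highest. Its difference between CSA and CFA was -1.42 on the log2 scale and missed the threshold (adjusted p = 0.059, limma).

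Chil3, on chr3:106147554-106167564 (GRCm38, minus strand), encodes Ym1, a chitinase-like secreted protein of monocytes, alternatively activated macrophages and neutrophils. Its FPKM was 21.5, 20.4 and 29.4 in CSA, 0.9, 6.93 and 1.3 in CFA, 0.462, 0.562 and 0.366 in CSS, and 0.265, 0.295 and 0.178 in CFS. The groups CSA and CFA did not overlap, and within CFA the mouse CFA 72 was 6.3 times the mean of the other CFA mice. Chil3 was higher in CSA than in CFA by 3.46 ± 0.57 on the log2 scale (SE, n = 3; adjusted p = 0.000641, limma), and without CFA 72 by 4.31. The paralog Chil4, with 94.4% identical positions in the coding alignment, was listed at 0 in 11 of 12 mice and at 0.0669 FPKM in CFA 72. Chil3 reached 1 FPKM only in the CSA mice and in 2 CFA mice, with 5 to 17 fragments in each saline library.

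Adgre1, on chr17:57358691-57483527 (GRCm38, plus strand), encodes F4/80, an adhesion receptor used to stain mouse macrophages whatever their origin. Its FPKM was 78.2, 65.9 and 72.3 in CSA, 7.88, 14.4 and 7.23 in CFA, 6.98, 8.05 and 5.96 in CSS, and 6.0, 7.31 and 4.66 in CFS. The CSA mice stood well above the rest, whose groups overlapped. The log2 difference between CSA and CFA was 2.93 ± 0.25 (SE, n = 3; adjusted p = 8.64e-06, limma), a ratio of means of 7.33.

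Among the resident markers, Mrc1 had the largest upward difference between CSA and CFA, and it was not called. Mrc1, on chr2:14229392-14332057 (GRCm38, plus strand), encodes the mannose receptor CD206, which takes up glycoproteins. Its FPKM was 25.2, 25.8 and 52.1 in CSA, 14.6, 26.0 and 13.2 in CFA, 15.1, 15.7 and 11.6 in CSS, and 14.7, 14.6 and 13.5 in CFS. The CSA mice were above all saline mice and above CFA 71 and 74, but CFA 72 lay within their range, so CSA and CFA overlapped. The log2 difference was 0.91 ± 0.30 (SE, n = 3; adjusted p = 0.0337, limma), below the limit of 1.5. Without CSA 03 it was 0.57 (adjusted p = 0.0826), without CFA 72 it was 1.21 (adjusted p = 0.00813), and without both mice 0.87 (adjusted p = 0.000939). Without CFA 71 it was 0.80 (adjusted p = 0.109), and without CFA 74 it was 0.73 (adjusted p = 0.127). With no filter on low values the adjusted p was 0.06, and in a fit of CSA and CFA alone 0.126.

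Lyve1, on chr7:110850607-110863239 (GRCm38, minus strand), encodes a hyaluronan receptor that marks resident macrophages along arteries. Its FPKM was 7.19, 7.56 and 16.1 in CSA, 15.03, 25.6 and 14.2 in CFA, 13.1, 11.8 and 11.5 in CSS, and 19.9, 19.9 and 21.1 in CFS. CSA 01 and CSA 02 were the lowest of the 12 mice, whereas CSA 03 lay among the CFA mice. The log2 difference between CSA and CFA was -0.87 ± 0.30 (SE, n = 3; adjusted p = 0.0367, limma), again below the limit of 1.5. Without CFA 72 it was -0.60 (adjusted p = 0.135), without CSA 03 it was -1.24 (adjusted p = 0.000788), and without both -0.98 (adjusted p = 3.67e-05). Over the 12 fits that left out 1 mouse the adjusted p was 0.000788 to 0.135, with no filter on low values it was 0.0651, and in a fit of CSA and CFA alone 0.143.

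Cd163, on chr6:124304656-124330527 (GRCm38, plus strand), encodes the scavenger receptor for haemoglobin bound to haptoglobin. Its FPKM was 3.89, 5.93 and 10.1 in CSA, 8.39, 24.4 and 11.6 in CFA, 15.4, 7.9 and 11.0 in CSS, and 11.7, 10.2 and 11.8 in CFS. CSA 01 and CSA 02 were the lowest of all mice, and CSA 03 fell between CFA 71 and CFA 74. The log2 difference between CSA and CFA was -1.10 ± 0.41 (SE, n = 3; adjusted p = 0.0535, limma), and it was -0.67 without CFA 72 (adjusted p = 0.193), -1.46 without CSA 03 (adjusted p = 0.0152) and -1.02 without both (adjusted p = 0.0224).

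The other 3 resident markers did not pass the test between CSA and CFA with all 12 mice weighted equally. F13a1 (chr13:36867178-37050244, minus strand) encodes the A subunit of the clot-stabilising factor XIII, and its FPKM was 10.9, 15.1 and 21.7 in CSA and 20.3, 31.7 and 14.5 in CFA, a log2 difference of -0.46 (95% interval -1.08 to 0.16). The F13a1 difference was -0.17 without CFA 72, -0.71 without CSA 03 (adjusted p = 0.0495) and -0.42 without both (adjusted p = 0.096), and array weights, which count libraries that stand apart for less, gave -0.60 (adjusted p = 0.0183). Folr2 (chr7:101839988-101857194, minus strand) encodes folate receptor beta, and its FPKM was 3.28, 4.6 and 4.14 in CSA and 3.38, 5.79 and 3.26 in CFA, a log2 difference of -0.01 (95% interval -0.55 to 0.53). Timd4 (chr11:46810800-46844332, plus strand) encodes TIM-4, a receptor for phosphatidylserine on dying cells, and its FPKM was 0.567, 0.304 and 1.26 in CSA and 0.951, 1.37 and 0.478 in CFA, a log2 difference of -0.43 (95% interval -1.58 to 0.72). In all 3 the groups overlapped. Timd4 rested on 14 to 63 fragments per library. Its difference was -0.12 without CFA 72, -0.89 without CSA 03 (adjusted p = 0.168) and -1.04 with array weights (adjusted p = 0.0454). Exons of Folr2 overlapped those of the antisense gene Gm10602 over 63.1% of their bases. Gm10602 was at 0.191 to 0.621 FPKM in the 12 mice, and since the library protocol names no step that marks the strand, fragments of this overlap cannot be told apart.

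**Figure D2:**
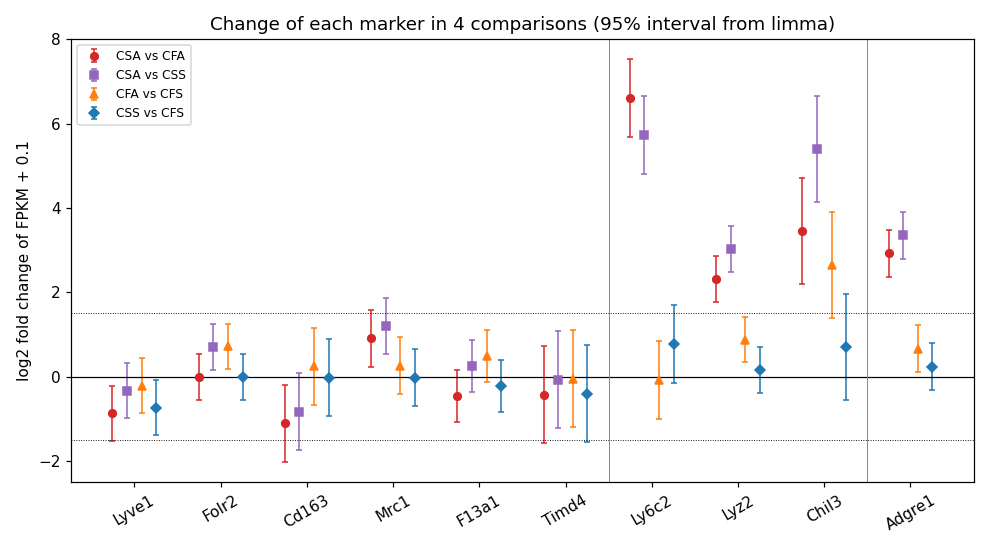
Log2 fold change of FPKM + 0.1 (y axis) for each marker (x axis) in 4 comparisons, with the 95% interval from limma as bars and dotted lines at the limits of -1.5 and 1.5. The monocyte-derived markers and Adgre1 lie above the upper limit in both comparisons with CSA, and no resident marker lies past a limit in any comparison.

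The distance between both classes was summarised in each mouse as the mean log2(FPKM + 0.1) of the 6 resident markers minus that of the 3 monocyte-derived markers, as a description without a test. It was -4.25, -3.99 and -3.41 in CSA 01, 02 and 03, and 0.87, 0.38 and 0.45 in CFA 71, 72 and 74. In the saline groups it was 0.79, 0.83 and 0.42 in CSS and 1.72, 1.07 and 1.62 in CFS. The zero of this scale is set by the genes chosen, so the values serve only to compare mice. The mean was 1.47 ± 0.35 in CFS, 0.68 ± 0.22 in CSS, 0.57 ± 0.27 in CFA and -3.88 ± 0.43 in CSA (SD, n = 3). The monocyte-derived mean moved most, from between 1.98 and 3.31 in CFA to between 6.51 and 6.76 in CSA, while the resident mean was 2.66 to 3.68 in CFA and 2.36 to 3.34 in CSA.

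**Figure D3:**
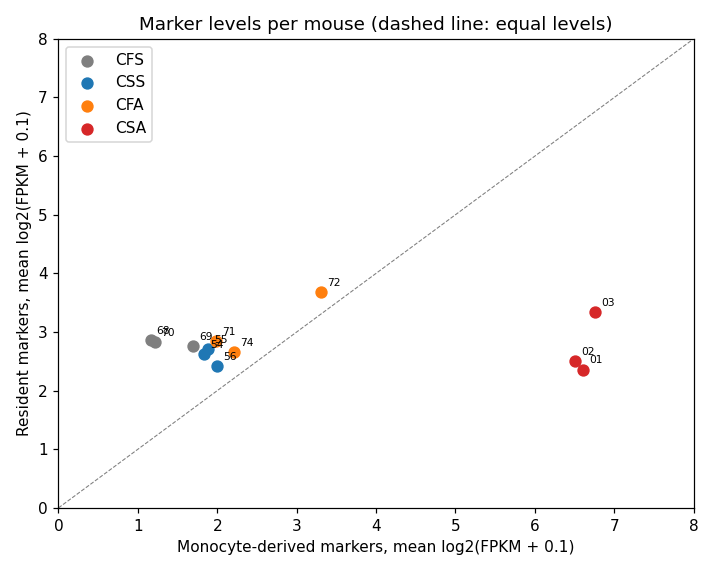
Mean log2(FPKM + 0.1) of the 6 resident markers (y axis) against that of the 3 monocyte-derived markers (x axis) in each mouse (points, labelled by mouse number and coloured by group), with a dashed line where they are equal. The 3 CSA mice lie to the right at 6.51 to 6.76 on the x axis, and on the y axis they span 2.36 to 3.34, within or near the range of the other mice.

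The markers were also set against Adgre1 in each mouse. Since Adgre1 itself was higher in CSA, this ratio is lower there for any gene that changed less than Adgre1. The ratio of Lyve1 to Adgre1 (FPKM over FPKM) was 1.88 ± 0.094 in CFA and 0.143 ± 0.0701 in CSA (SD, n = 3). That of Mrc1, whose own mean was higher in CSA without being called, was 1.83 ± 0.0237 in CFA and 0.478 ± 0.212 in CSA. For Cd163 the ratio was 1.45 in CFA and 0.093 in CSA, for F13a1 2.26 and 0.223, for Folr2 0.428 and 0.0563, and for Timd4 0.0938 and 0.00976. In each of these 6 the highest CSA mouse was below the lowest CFA mouse, as it was for 90% of all tested genes, so the lower ratios are not particular to resident markers. CFA 72, high in FPKM for most markers, had a Mrc1 ratio of 1.81 against 1.85 and 1.83 in the other CFA mice, but a Chil3 ratio of 0.481 against 0.114 and 0.18.

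The ratio of Ly6c2 to Adgre1 was 0.0314 ± 0.0108 in CFA and 0.517 ± 0.037 in CSA. Lyz2, in contrast, had a ratio of 23.4 ± 0.314 in CFA and 15.3 ± 2.34 in CSA, so it was higher in CSA by less than Adgre1 was. For Chil3 the ratio was 0.114, 0.481 and 0.18 in CFA and 0.275, 0.31 and 0.406 in CSA, and these overlapped through CFA 72. The ratios were not tested.

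Without Ang II, no marker was called between genotypes. Between CSS and CFS 0 of the 10 markers were called by limma, where 0.0136% of all tested genes were, and 1 marker, Lyve1, had an unadjusted p under 0.05, as did 6.3% of the tested genes. Lyve1 was lower in all 3 CSS mice (11.5 to 13.1 FPKM) than in all 3 CFS mice (19.9 to 21.1 FPKM). Its log2 difference was -0.74 ± 0.30 (SE, n = 3; adjusted p = 0.696, limma), which failed the correction with all 12 mice weighted equally in the fit. Over the 12 fits that left out 1 mouse the adjusted p was 0.139 (without CSA 03) to 1, and 0.607 without CFA 72. It was 0.00698 without CFA 72 and CSA 03, 0.049 with array weights and 0.0251 in a fit of CSS and CFS alone, all of which change the estimate of the spread. Lymphatic endothelium also makes Lyve1, and the levels of its genes Mmrn1, Prox1, Reln and Pdpn were lower in each CSS mouse than in each CFS mouse, while Flt4, Ccl21a and Stab2, the other genes of that list, overlapped. Their part in the Lyve1 value was not tested. Mmrn1 was at 2.73 to 3.16 FPKM in CSS and 5.27 to 6.04 FPKM in CFS (-0.91, unadjusted p = 0.00667, adjusted p = 0.498). Prox1 was at 0.192 to 0.373 against 0.471 to 0.6 FPKM, and Reln at 0.459 to 0.484 against 0.61 to 1.04 FPKM. Pdpn was at 5.19 to 5.6 FPKM in CSS and 6.85 to 7.47 FPKM in CFS. The 7 genes of that list summed to 11.5 to 12.4 FPKM in CSS and 15.4 to 19.7 FPKM in CFS. F13a1 was also lower in each CSS mouse (11.4 to 14.1 FPKM) than in each CFS mouse (14.7 to 15.2 FPKM), and Chil3 higher (0.366 to 0.562 against 0.178 to 0.295 FPKM). Such gaps were seen in 20.4% of all tested genes here, so 3 of 10 markers is near that share. For Mrc1 and Cd163 the differences were -0.02 (95% interval -0.70 to 0.65) and -0.03 (95% interval -0.94 to 0.89).

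In CCN2fl/fl mice Ang II gave no called marker either. Between CFA and CFS 0 of the 10 were called by limma, where 0.0273% of all tested genes were, and 4 had an unadjusted p under 0.05 (Folr2, Lyz2, Chil3 and Adgre1, each with a higher mean in CFA), against 9.42% of the tested genes. Chil3 showed the largest difference, 2.65 ± 0.57 on the log2 scale (SE, n = 3; adjusted p = 0.119), and without CFA 72 it was 1.79 (adjusted p = 0.173). With array weights Chil3 was called at 2.10 (adjusted p = 0.0434). Without CFA 72 the other differences were smaller too, for Lyz2 0.58 against 0.88 with it, for Folr2 0.46 against 0.72 and for Adgre1 0.35 against 0.66, none with an adjusted p under 0.05. Lyz2 was at 172.0 to 335.2 FPKM in CFA and 100.8 to 139.2 FPKM in CFS without overlap, and Folr2 at 3.26 to 5.79 and 2.13 to 2.73 FPKM, also without overlap. With Chil3 these make 3 of 10 markers, all higher in CFA, where 9.44% of the tested genes showed such a gap upward.

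In CCN2SMCΔ mice the same infusion separated the groups. Between CSA and CSS 4 of the 10 markers were called, all higher, where 20.3% of the tested genes were called and 10.9% as higher. The log2 differences were 5.73 ± 0.42 for Ly6c2 (adjusted p = 2.1e-06), 5.40 ± 0.57 for Chil3 (adjusted p = 2.26e-05), 3.35 ± 0.25 for Adgre1 (adjusted p = 2.51e-06) and 3.03 ± 0.24 for Lyz2 (adjusted p = 3.7e-06), each with its SE and n = 3. Of the resident markers, Mrc1 was higher by 1.20 (adjusted p = 0.00751) and Folr2 by 0.71 (adjusted p = 0.0334), both under the limit of 1.5. Without CSA 03 the difference of Mrc1 was 0.86 (adjusted p = 0.0144) and that of Folr2 0.68 (adjusted p = 0.0579). The differences of Lyve1 and Cd163 had the other sign, at -0.34 (adjusted p = 0.379) and -0.83 (adjusted p = 0.125). Without CSA 03 they were at -0.71 (adjusted p = 0.0154) and -1.18 (adjusted p = 0.0346), and without both CFA 72 and CSA 03 their adjusted p was 0.000103 and 0.00645. Over the 12 fits that left out 1 mouse, Lyve1 ranged from -0.71 to -0.132, with an adjusted p of 0.015 to 0.753. Cd163 ranged from -1.18 to -0.505 in these fits, with an adjusted p of 0.035 to 0.353. With all 12 mice weighted equally in the fit, 6 of 10 markers had an adjusted p under 0.05, as did 46.2% of the tested genes. The values of Mrc1 and Folr2 did not overlap between CSA and CSS, which with the called markers makes 6 of 10, all upward, where 26.3% of the tested genes showed a gap upward. This comparison shares its CSA mice with the comparison of CSA and CFA, so it is no independent repeat of it.

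The difference between the genotype effects, (CSA minus CFA) minus (CSS minus CFS), was tested directly as an interaction, and 15.2% of the tested genes were called in it, 7.89% as higher. The same 4 markers were called, Ly6c2 at 5.82 ± 0.59 (adjusted p = 9.1e-05), Chil3 at 2.75 ± 0.81 (adjusted p = 0.0279), Adgre1 at 2.69 ± 0.36 (adjusted p = 0.000399) and Lyz2 at 2.15 ± 0.34 (adjusted p = 0.00117), in log2 units with the SE and n = 3 per group. With limma's treat, which tests against the limit of 1.5 itself, the call of Ly6c2 held (adjusted p = 0.00258), and those of Adgre1 (0.0917), Lyz2 (0.521) and Chil3 (0.759) did not. The Chil3 value was 2.20 to 2.76 without CFA 71, CFA 74, CFS 68, CFS 69, CSS 54 or CSS 56 in turn, with an adjusted p of 0.0553 to 0.0697, and 3.61 without CFA 72. With no filter on low values the adjusted p of Chil3 was 0.0527, so its call was lost there too. None of the 6 resident markers had an adjusted p under 0.05 with all 12 mice weighted equally. Lyve1 differed by -0.13 (95% interval -1.06 to 0.80), its mean being lower in CCN2SMCΔ mice with and without Ang II, and Cd163 by -1.08 (95% interval -2.37 to 0.21), or -0.64 without CFA 72 and -1.43 without CSA 03. Mrc1 differed by 0.94 (95% interval -0.01 to 1.89). This value was 1.24 without CFA 72 (adjusted p = 0.0408), 0.59 without CSA 03 (adjusted p = 0.197) and 0.89 without both (adjusted p = 0.00486). With array weights it was 0.75 (adjusted p = 0.0355).

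Further genes were grouped in lists by function, with earlier results of these data known, so they are no independent support for the marker result. In them, genes of monocyte-derived cells were mostly higher in CSA than in CFA, and genes of resident macrophages went both ways. Beside the counts below, 8.95% of all tested genes were called as higher in CSA than in CFA and 8.27% as lower. Of 14 other genes of monocytes and monocyte-derived cells, 13 were called as higher in CSA than in CFA and 0 as lower, with a median log2 difference of 3.43 beside -0.04 over all tested genes. Of the 14, 6 reached 1 FPKM in 3 libraries only by counting the CSA mice, so their high values in CSA also brought them into the test, and of the other 8 genes 7 were called as higher. Ccr2, the receptor through which monocytes enter tissue, was at 62.8, 59.2 and 85.4 FPKM in CSA and 2.45, 8.31 and 2.87 FPKM in CFA, a difference of 4.10 (adjusted p = 2.08e-05). Plac8, abundant in Ly6C-high monocytes, was at 139.4, 147.5 and 169.0 FPKM in CSA and 3.81, 8.64 and 2.9 FPKM in CFA, a difference of 5.02 (adjusted p = 6.7e-06).

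Of 15 genes shared by macrophages of either origin, 14 were called as higher and 0 as lower in CSA (median 3.21). Of the 15, 1, Itgam, entered the test only through the CSA mice, and of the other 14 genes 13 were called. Csf1r, the receptor for macrophage colony-stimulating factor, was at 123.1, 110.1 and 101.5 FPKM in CSA and 25.3, 41.6 and 24.5 FPKM in CFA, a difference of 1.91 (adjusted p = 2.33e-05). Fcgr1, the high-affinity IgG receptor, was higher by 5.24 (adjusted p = 1.33e-05), and the complement gene C1qa by 2.50 (adjusted p = 0.000282). The exception was Mertk, a receptor tyrosine kinase for the uptake of dying cells. It was at 11.2, 14.5 and 20 FPKM in CSA and 20.4, 31.6 and 23.1 FPKM in CFA, just without overlap, a difference of -0.73 (adjusted p = 0.0185) that lies below the limit of 1.5.

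Of 17 other genes linked to resident macrophages, 16 were tested, and 1 was called as higher and 3 as lower in CSA than in CFA (median -0.60). Of all tested genes, 8.95% were called as higher and 8.27% as lower. The called lower genes were Cbr2, a carbonyl reductase, at 36.9, 38.3 and 31.1 FPKM in CSA and 219.8, 206.8 and 165.7 FPKM in CFA (-2.47, adjusted p = 1.01e-06), Ccl24, an eosinophil-attracting chemokine, at 0.0 to 0.255 FPKM against 1.1 to 2.55 FPKM (-3.16, adjusted p = 0.000512), and Cd209b, a C-type lectin, at 0.396 to 1.2 FPKM against 1.56 to 2.97 FPKM (-1.5, adjusted p = 0.0136). Maf and Igf1 were higher by 1.0 and 1.14, with adjusted p of 0.000414 and 0.00133 but under the limit. Pf4 and Stab1, at 0.12 and 0.09, and Gas6, at -0.14, did not pass. The level of Cbr2 did not follow the macrophage genes within CFA. CFA 72, the highest CFA mouse in all 15 genes shared by macrophages, lay between CFA 71 and CFA 74 in Cbr2. The ratio of Cbr2 to Adgre1 was 21.7 ± 6.85 in CFA (SD, n = 3). Which cells held the Cbr2 RNA was not tested.

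The ligands that draw monocytes were measured in the same aortas. Of 7 tested ligands for monocyte recruitment and survival, 4 were called as higher in CSA than in CFA and 0 as lower. Ccl2, the main ligand of CCR2, was at 85.8, 70.8 and 61.6 FPKM in CSA and 1.29, 6.13 and 0.332 FPKM in CFA, a difference of 5.54 (adjusted p = 0.000313). Ccl7 and Ccl12, which also bind CCR2, were higher by 5.75 (adjusted p = 0.000317) and 4.76 (adjusted p = 0.000413), and Ccl8 by 2.07 (adjusted p = 0.0408). The survival factor Csf1 was higher by 0.44 (adjusted p = 0.0344), under the limit, and Cx3cl1 and Il34 gave 0.16 and -0.64 without passing.

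Markers of other cells moved together with the monocyte-derived markers, and their part in these values was not tested. Of 10 tested neutrophil genes, 10 were called as higher in CSA, but 7 of them entered the test only through the CSA mice. The summed level of the list (12 genes) was 531 to 584 FPKM in CSA and 11.3 to 28.2 FPKM in CFA. S100a9, a subunit of calprotectin, was at 277.6, 275.7 and 251.4 FPKM in CSA, whereas Ly6g, a defining surface marker, was at 0.68 FPKM in CSA 01 and 0 in CSA 02 and 03. Cxcr2, a chemokine receptor of neutrophils, was at 19.4 to 30.3 FPKM in CSA and 0.301 to 1.41 FPKM in CFA, Retnlg at 34.5 to 87.4 and 0.716 to 4.13 FPKM, and the granule gene Ngp at 6.85 to 12.3 FPKM in CSA and 0 in the 3 CFA mice. For Lyve1, of 3 tested genes of lymphatic endothelium 1 was called as higher, Pdpn, which fibroblasts and macrophages can also express. The lineage factor Prox1 was at 1.7, 0.438 and 1.33 FPKM in CSA and 0.224 to 0.551 FPKM in CFA. Of 6 tested dendritic cell genes 3 were called as higher, namely Flt3 (2.97), Siglech (2.04) and Ccr7 (4.32), and all 3 entered the test only through the CSA mice. Clec9a gave 0.27 without passing, whereas Zbtb46, a factor of conventional dendritic cells, was lower by a difference of -0.80 (adjusted p = 0.00158), under the limit. In the saline mice Zbtb46 was at 2.58 to 3.97 FPKM, Clec9a at 0.455 to 1.44 FPKM and Flt3 at 0.0173 to 0.0845 FPKM. Whether dendritic cells held the Zbtb46 RNA was not tested. The 4 tested lymphocyte genes, of which 3 were called, and the 2 tested eosinophil genes, both called as higher, likewise entered only through CSA. Other lists had lower genes in CSA than in CFA. Of 5 genes of blood endothelium 2 were called as lower, Pecam1 (-1.84, adjusted p = 0.0215) and Tek (-1.89, adjusted p = 0.0158). The median of these 5 was -0.36, and Kdr was higher in each CSA mouse than in each CFA mouse (0.92, adjusted p = 0.0809, limma). Of 5 adipocyte genes 1 was called as lower, the lipid droplet gene Plin1 (-2.88, adjusted p = 0.011), in a list whose median was -1.84. Of all tested genes 8.27% were called as lower. The adipocyte list summed to at most 95.6 FPKM in each CSA mouse and 88.4 to 255 FPKM in CFA. The summed smooth muscle level (5 genes) was 776 to 913 FPKM in CSA and 5210 to 8090 FPKM in CFA, while the 5 fibroblast genes summed to 3420 to 4110 and 1910 to 2150 FPKM. Col1a1 alone was at 2561 to 3262 FPKM in CSA and 1383 to 1512 FPKM in CFA. Of the 5 fibroblast genes 0 were called. Lum and Col1a1 were higher by 1.44 and 0.96 (adjusted p = 0.000222 and 0.000529, limma), and Pi16 gave -1.17 (adjusted p = 0.00367), all under the limit.

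**Figure D4:**
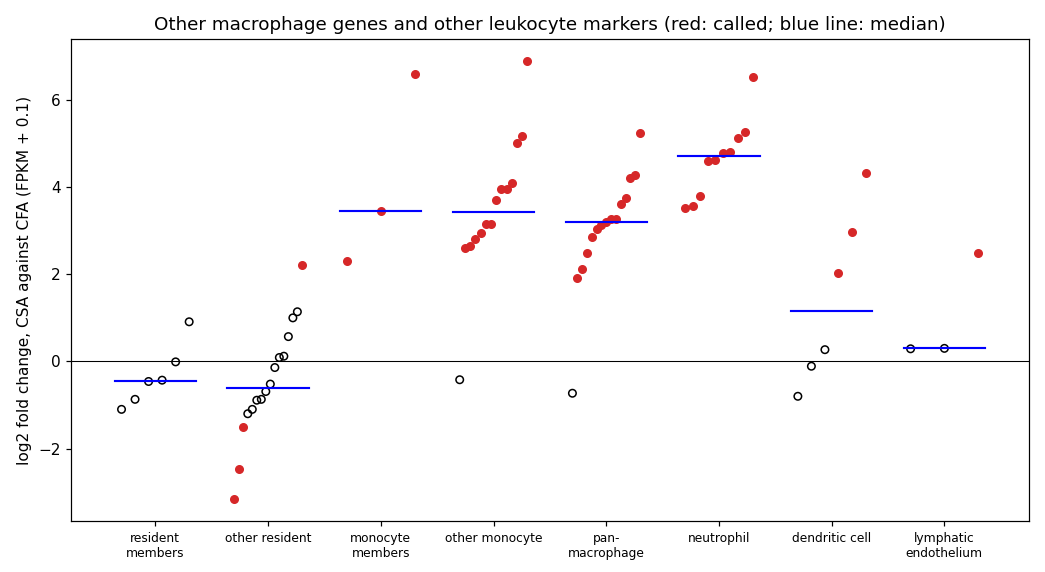
Log2 fold change between CSA and CFA (y axis, FPKM + 0.1) for each tested gene (points) of 8 lists (x axis), with called genes in red, others as open circles and the median of a list as a blue line. The monocyte, pan-macrophage and neutrophil lists lie almost wholly above 0, with medians of 3.43, 3.21 and 4.70, while both resident lists straddle 0, with medians of -0.44 and -0.60.

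Across the 12 libraries, the genes whose log2(FPKM + 0.1) followed the mean of the 3 monocyte-derived markers most closely were Cxcr4 (Pearson's r = 0.996), Lilrb4a, Ms4a7, Mpeg1 and Ifi30 (each 0.995), and all 5 have a much higher mean in CSA than in the other groups. For the mean of the 6 resident markers the closest were Pcgf3 (0.87), Lancl2 (0.819), Ccdc80 (0.817) and Cflar (0.814), and none of these is a macrophage marker of the lists. These values are descriptions over 12 libraries that share their groups, so a gene that merely differs in CSA follows the monocyte-derived mean closely.

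The 250 bases before the transcript start, from the RefSeq promoter table for GRCm38.p6, matched 8 of the 10 markers by symbol, all but Lyve1 and Adgre1. They were searched on both strands for GAGGAA, the core bound by the myeloid factor PU.1, and for TTNNGNAA, a short form of the site of the C/EBP family, with N for any base, and also for TGANTCA, the AP-1 site, and TGCTGA, a core part of the site bound by Maf. The C/EBP form was found in 6 of the 8 markers, where 36.8% of 32851 promoters of that length hold it, and GAGGAA in 3 of the 8, where 23.3% do. TGCTGA was found in 4 of the 8, where 16.1% hold it, and TGANTCA in 1, where 6.75% do. Some markers have more than 1 listed start, and a match in any of their windows was counted. The 3 monocyte-derived markers, which were high together in CSA, are shown with GAGGAA and the C/EBP form in capitals. Mrc1 is shown with them as the resident marker with the largest upward difference between CSA and CFA, which was not called.
Ly6c2 chr15:75111972-75112221, minus strand: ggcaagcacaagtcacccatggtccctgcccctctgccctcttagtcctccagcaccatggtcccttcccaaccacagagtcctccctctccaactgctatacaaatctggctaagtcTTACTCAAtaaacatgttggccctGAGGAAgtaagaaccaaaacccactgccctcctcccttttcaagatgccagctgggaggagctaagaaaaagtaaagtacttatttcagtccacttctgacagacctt
Lyz2 chr10:117282273-117282522, minus strand: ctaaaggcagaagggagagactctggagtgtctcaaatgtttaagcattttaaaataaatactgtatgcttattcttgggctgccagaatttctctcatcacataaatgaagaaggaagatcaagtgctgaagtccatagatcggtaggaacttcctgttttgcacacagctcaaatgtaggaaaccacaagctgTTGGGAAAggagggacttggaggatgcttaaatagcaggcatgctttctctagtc
Chil3 chr3:106167565-106167814, minus strand: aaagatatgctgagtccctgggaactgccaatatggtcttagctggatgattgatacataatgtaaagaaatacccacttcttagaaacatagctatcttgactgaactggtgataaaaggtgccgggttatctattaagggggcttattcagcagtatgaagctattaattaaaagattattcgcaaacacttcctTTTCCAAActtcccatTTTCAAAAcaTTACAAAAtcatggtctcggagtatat
Mrc1 chr2:14229164-14229413, plus strand: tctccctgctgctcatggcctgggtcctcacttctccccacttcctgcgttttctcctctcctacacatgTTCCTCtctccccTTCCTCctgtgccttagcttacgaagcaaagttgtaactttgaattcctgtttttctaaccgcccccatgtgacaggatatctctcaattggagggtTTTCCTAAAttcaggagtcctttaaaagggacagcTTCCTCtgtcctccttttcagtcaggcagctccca
Counted from the transcript start, GAGGAA or its complement began at -108 in Ly6c2 and at -180, -167 and -35 in Mrc1, and was not matched in these windows of Lyz2 and Chil3. The C/EBP form began at -132 in Ly6c2, at -55 in Lyz2, at -53, -37 and -27 in Chil3, and at -70 and -69, overlapping, in Mrc1. For a further listed start of Ly6c2, slightly downstream, GAGGAA began at -142 and -8 and the C/EBP form at -166 and -27. A match is a run of letters and not a measured binding site, and members of either class held GAGGAA, the C/EBP form and TGCTGA, so these did not divide the classes.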

How the data were processed

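Poly(A) RNA of 12 mouse abdominal aortas was sequenced as pairs of 150 bases, 1 library per mouse, and samples were grouped by their labels. The deposited table gives FPKM, 1 value per gene and library, with no pooled columns. The submitters' processing notes name HISAT2 2.0.5, StringTie 1.3.3b, featureCounts 1.5.0-p3 and the build mm10, and the annotation release is not given in the sources used here. The table held 0 sample columns that were left unused. With exon lengths of GENCODE M21 (GRCm38), values below 100 fragments came out whole (tolerance 0.05) in 98.05% to 98.53% of cases per library, and their sums served as depth. The floor for a listed 0 was set at 3 fragments, which covers counting error only.

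From the deposited FPKM, log2(FPKM + 0.1) was tested with limma 3.58.1 in R 4.3.3 (1 coefficient per group over 12 libraries, eBayes with trend and robust settings, two-sided), for 14676 genes with at least 1 FPKM in at least 3 libraries. Benjamini-Hochberg adjustment ran over all tested genes within a comparison, and calls needed an adjusted p below 0.05 together with a log2 difference beyond 1.5 in either direction. Fold changes on this scale understate the change of low genes. On simulated data for CSA and CFA (13711 genes tested), 187 of 200 genes changed 8-fold were called (93.5%), with 2 unchanged genes called. The changed genes were drawn from those with a simulated mean of at least 2 FPKM. A gene had the same spread in all groups, around its level in CFS. The rate therefore does not cover smaller changes, lower genes or mice that stand apart from their group. Summaries used Python 3.11.15 with numpy 2.4.6 and pandas 2.3.3, and plots matplotlib 3.10.9.

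The text names the 10 markers, the targeted gene, paralogs of the markers, genes of the macrophage and ligand lists, the 3 tested genes with the largest change and the most abundant gene of each other list, and the 5 genes most correlated with each class. The markers and the 20 lists (140 genes, all matched) were chosen with earlier results of these data known. Some genes that this rule selects are counted in their lists but not reported here by name. Gm10602, Ly6g, Prox1, Reln, Ccl21a, Stab2, Zbtb46, Clec9a, Retnlg, the motifs and the paralog sequences were chosen after values were seen. Alternatives were other pseudocounts (1 and 0.01), no filter or a mean of at least 5 FPKM, median-of-ratios scaling or equal sums, eBayes without trend and robust settings, array weights, no fold limit, limma's treat, a fit restricted to the compared groups, and leaving out each mouse. Leaving out CFA 72 and CSA 03 together was added after seeing the data.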

Additional observations from a re-analysis of the deposited data

Results flagged for a closer look

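For 4 markers the effect of the CCN2SMCΔ genotype differed between Ang II and saline by the interaction test of limma over all tested genes. The genotype effect under Ang II minus that under saline was 5.82 for Ly6c2, 2.15 for Lyz2, 2.75 for Chil3 and 2.69 for Adgre1, in log2 units. Tested against the fold limit itself with limma's treat, only Ly6c2 of these 4 held. In each, all 3 CSA mice were above all 3 CFA mice. No cause was tested, and the same CSA libraries also held more RNA of neutrophil genes and less of smooth muscle genes.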

How the results depend on the processing

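For 56 followed values 1312 alternative values were computed. Of these 1246 kept their direction and side of the threshold, or stayed within the spread between replicates. Counts of called markers moved over 1.5 times only between CFA and CFS with array weights (1, against 0) and in the interaction with limma's treat (1, against 4). Between CSA and CFA, 4 markers were called under 22 of 24 alternatives, 6 without a fold limit, and 3 with limma's treat, where Lyz2 missed (adjusted p = 0.0525). The direction changed only for differences that had not been called. Folr2 between CSA and CFA (-0.01) became 0.0676 with equal sums, 0.15 with array weights and 0.22 without CFA 72 and CSA 03 together, and 0.12 to 0.25 without single mice (-0.15 to 0.25 over all 12 such fits). Between CSS and CFS, equal sums gave 0.050 for Folr2, 0.0334 for Cd163 and 0.0371 for Mrc1, and array weights 0.0134 for Folr2. Without single mice these ranged from -0.19 to 0.0938 for Folr2, -0.27 to 0.21 for Cd163 and -0.11 to 0.11 for Mrc1. Between CFA and CFS, Cd163 became -0.10 with array weights and -0.19 without CFA 72 and CSA 03, which gave Mrc1 -0.0352. Without single mice the values were -0.19 to 0.58 for Cd163, -0.0352 to 0.45 for Mrc1, -0.54 to 0.31 for Ly6c2 and -0.36 to 0.32 for Timd4. Between CSA and CSS, F13a1 became -0.0016 without CFA 72 and CSA 03, and without single mice it was -0.0016 to 0.49 and Timd4 -0.53 to 0.34. In the interaction Lyve1 was -0.50 to 0.14 without single mice. The cause of these changes was not tested. The resident minus monocyte-derived level kept its sign in every comparison. For CSA minus CFA (-4.45) it was -3.63 with a pseudocount of 1, -5.08 with the median over markers, -3.21 without Ly6c2, -5.36 without Lyz2, -4.78 without Chil3 and -4.78 without CFA 72 and CSA 03. For CSS minus CFS it was -0.41 with a pseudocount of 1. For CFA minus CFS it was -0.51 with a pseudocount of 1, -1.90 with the median, -1.52 without Ly6c2 and -0.15 without Chil3. For CSA minus CSS it was -3.73, -6.18, -4.06, -5.41 without Lyz2 and -4.23 without Chil3, in the same order. Equal sums moved the median of all genes by 0.0777 between CSA and CFA. No paired analysis was possible because the groups share no replicate numbers. With 3 mice per group, an exact permutation test of a single value could not go below 0.1, and Folr2, Timd4, Ly6c2 and Chil3 rest on under 100 fragments in each saline library.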
